A study of Homo sapiens with 2 samples.

Results

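The 10 genes described here form the signalling axis that runs from the kinase STK11 to the coactivators of the transcription factor CREB. They were taken from a list of symbols, set with earlier results of these data known. All 10 were found among the 23686 gene symbols of the tables. Poly(A) RNA was sequenced from the human cell line A427, derived from a non-small cell lung carcinoma, whose cultures contain attached cells and floating spheres. The adherent group was cells collected from the attached culture and the floating group was the sphere-forming cells of the same line, both labelled wild type for genotype, grown in serum-supplemented RPMI medium with no agent named. The series title calls the line CTNNB1-mutated, and A427 is known as STK11-deficient, so both groups share these features. Each group is 1 library of 1 line, with no stated number of cultures behind it. The ratios below therefore compare these 2 libraries, no p-value is given, and each 95% interval reflects counting error alone and leaves out variation between cultures.

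STK11, also called LKB1, is a tumour suppressor kinase that becomes active when it binds the pseudokinase STRAD and the scaffold protein encoded by CAB39. The active complex phosphorylates the activation loop of AMPK, the energy sensor that restrains lipid synthesis and mTORC1 when ATP is short, and of related kinases that include the salt-inducible kinases (SIK). SIK kinases phosphorylate the CRTC coactivators and so hold them in the cytoplasm. Dephosphorylated CRTC proteins enter the nucleus and join CREB at genes such as NR4A1, NR4A2 and SIK1 itself. Loss of STK11 in lung cancer is known for releasing CRTC proteins from this control. RNA levels do not show phosphorylation or the place of a protein in the cell.

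The CREB element that CRTC proteins act on has the core TGACG, and its full palindrome is TGACGTCA. RefSeq promoter entries (build GRCh38.p14) were matched for 7 of the 10 genes, the others being STRADA, CRTC2 and NR4A2. The bases before the start of each matched entry were searched on both strands. The search was for the core, read as TGACG or CGTCA, and for the palindrome, which contains the core on each strand. Shown are SIK1, the gene of the 10 with the largest difference, its paralog SIK2, and NR4A3, the third gene of the NR4A family, each over the 250 bases before its start and 5′ to 3′ on the gene's strand, with core matches in capitals.
SIK1 (chr21:43427132-43427381, minus strand): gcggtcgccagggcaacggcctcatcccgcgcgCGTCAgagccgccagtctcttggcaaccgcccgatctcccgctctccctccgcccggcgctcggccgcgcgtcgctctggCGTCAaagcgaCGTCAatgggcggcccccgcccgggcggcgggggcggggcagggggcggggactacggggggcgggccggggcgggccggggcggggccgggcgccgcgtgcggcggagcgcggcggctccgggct
SIK2 (chr11:111602199-111602448, plus strand): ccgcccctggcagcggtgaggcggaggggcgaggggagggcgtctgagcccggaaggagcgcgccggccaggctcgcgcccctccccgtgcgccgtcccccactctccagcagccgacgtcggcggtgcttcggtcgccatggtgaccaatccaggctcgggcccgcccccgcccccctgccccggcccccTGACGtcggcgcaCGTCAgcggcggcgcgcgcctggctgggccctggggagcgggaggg
NR4A3 (chr9:99821635-99821884, plus strand): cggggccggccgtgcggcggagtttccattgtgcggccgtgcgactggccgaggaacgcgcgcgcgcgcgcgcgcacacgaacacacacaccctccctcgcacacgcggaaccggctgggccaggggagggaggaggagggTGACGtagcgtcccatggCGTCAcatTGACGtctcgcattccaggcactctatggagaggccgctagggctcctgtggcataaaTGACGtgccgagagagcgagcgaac
The SIK1 window held 3 core matches, the NR4A3 window 4 and the SIK2 window 2. At least 1 match was present in 21.2% of all 35116 promoter windows of this length, at least 2 in 4.76% and at least 3 in 1.01%. Among the 10 genes, 4 of 9 windows held a core match, those of STK11, SIK1, SIK2 and CRTC3, and 0 of 9 held the palindrome, which 1.65% of all windows held. Neither of the 2 NR4A1 windows (chr12:52022582-52022831 and chr12:52037465-52037714) held a core match. Bases before any other start of NR4A1 were not searched. The matches are letters in these windows and were not tested as binding sites.

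Reads assigned to genes numbered 26384670 in the adherent and 27148842 in the floating library. In all, 13131 genes reached 1 CPM (reads per 1000000, scaled by library) in at least one library and were compared, and all 10 genes were among them. The epithelial marker EPCAM was at 615 TPM in the adherent and 582 TPM in the floating library (transcripts per 1000000, a level per length), KRT8 at 327 and 581 TPM and KRT18 at 342 and 613 TPM. CDH1 was at 18.9 and 13.9 TPM, while KRT7 had at most 4 reads and KRT19 had 8 and 22 reads. The 5 lung lineage markers NKX2-1, NAPSA, SFTPC, SFTPB and SCGB1A1 summed to 2.07 and 1.81 TPM, with SFTPC and SCGB1A1 at 0 reads in both libraries. NAPSA, the only 1 compared, had 29 and 21 reads (1.95 and 1.32 TPM), and NKX2-1 had 3 and 13 reads. These defining markers of lung epithelium were thus absent or low. Of 5 leukocyte markers 2 were compared, PTPRC at 2.84 and 1.95 TPM and CD68 at 16.9 and 31.5 TPM, while CD3E and MS4A1 had 0 reads in both libraries. The 4 endothelial markers summed to 0.14 and 0.42 TPM, with CDH5 at 0 reads, and the 1 compared, VWF, had 14 and 44 reads, a log2 ratio of 1.57 (0.71 to 2.59), past 2-fold. The 7 fibroblast markers, 3 of them compared, summed to 140 TPM and 84.9 TPM, mostly COL3A1, while COL1A2 had 2 reads in each library. The part of such markers in the results below was not tested.

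None of the 10 genes was 2-fold apart between the libraries. Asking for a 2-fold difference and an interval clear of 0 on the log2 scale, 0 of 10 were called, against 2.03% of all genes compared. Counting intervals lay above 0 on the log2 scale for SIK1, NR4A1 and CAB39, and below 0 for PRKAA1, STRADA and NR4A2. That is 3 of 10 above, where 25.5% of all genes compared lay above, and 3 of 10 below, where 25.6% lay below. The interval held 0 for the other 4, STK11, SIK2, CRTC2 and CRTC3, against 48.9% of all genes. The members' counts were thus near these shares. In a bulk library, fewer cells with a transcript and less of it per cell cannot be told apart. The median log2 ratio of floating over adherent was -0.07 for the 10 genes and -0.005 for all genes compared. The salt-inducible kinase gene SIK1 was the only one of the 10 at least 1.5-fold apart, a threshold passed upward by 3.24%, downward by 2.9% and in either direction by 6.15% of all genes compared.

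**Figure D1:**
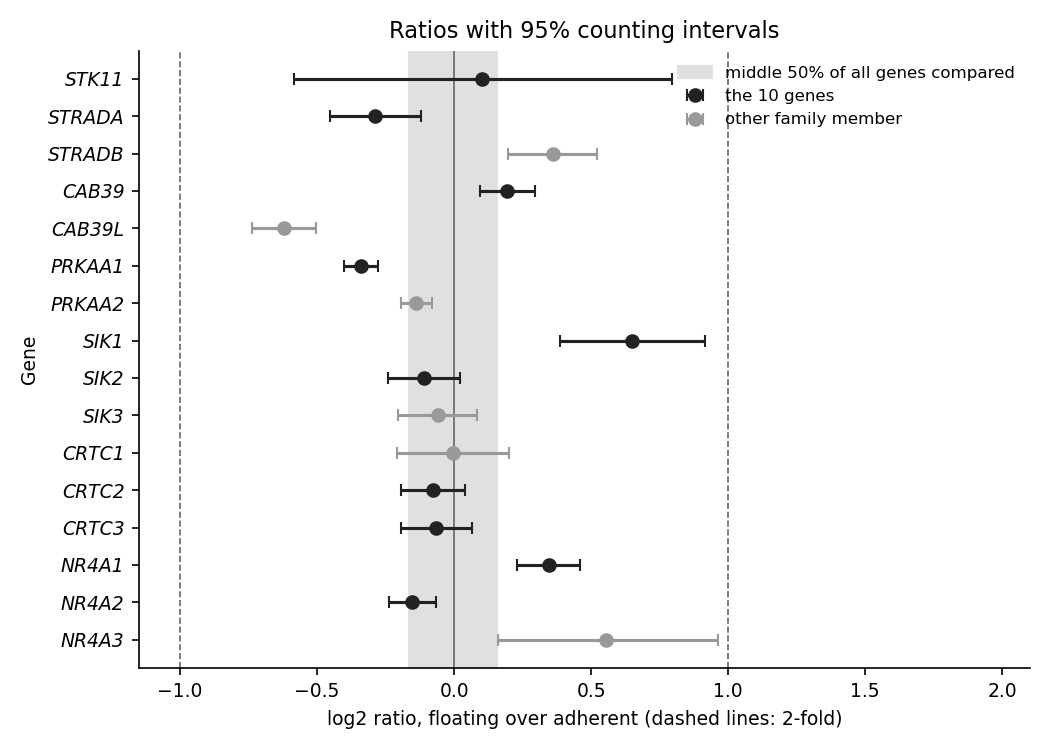
Log2 ratio of floating over adherent (x axis) for the 10 genes (black) and other members of their families (grey), each a point with its 95% counting interval. The shaded band is the middle 50% of all 13131 genes compared and the dashed lines mark 2-fold. All 16 points lie within the dashed lines, with SIK1 farthest to the right at 0.65 and CAB39L farthest to the left at -0.62.

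STK11 was the least abundant of the 10 in each library. It had 36 reads in adherent cells (exact Poisson interval 25.2 to 49.8) and 40 reads in floating cells (28.6 to 54.5). On the scale of level per length this was 0.93 TPM and 0.97 TPM. Of the genes compared, 2.63% had a lower TPM in adherent cells and 2.76% in floating cells. This rank leaves out genes below 1 CPM in both libraries, and STK11, at 1.37 and 1.47 CPM, was just above that cut. The low level was thus shared by the attached and the floating cells. The log2 ratio was 0.10 with a wide interval of -0.58 to 0.79, so values from 1.498-fold lower to 1.73-fold higher lay inside it and a difference of that size was not detectable at this depth. The table gives 1 value per gene, so which exons the reads came from cannot be read from it. C19orf26 (now CBARP), whose exons overlap those of STK11 on the opposite strand in GENCODE 29, had 230 and 223 reads. No source used here states whether counting used strand, so reads of that overlap cannot be told apart.

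The partners that activate STK11 were far more abundant than STK11. STRADA, the pseudokinase that switches STK11 on, was at 24.2 TPM in the adherent and 19.4 TPM in the floating library, with 656 and 556 reads. The floating level was the lower, by 1.22-fold on scaled counts (interval 1.09 to 1.37). CAB39, the scaffold that locks the active complex, was at 32.9 TPM in the adherent and 36.7 TPM in the floating library, with 1501 and 1776 reads. Here the floating level was the higher, by 1.14-fold (1.07 to 1.23). Each partner has a paralog that can take its place in the complex, and each paralog differed in the opposite direction. STRADB was at 20.7 TPM in the adherent and 25.7 TPM in the floating library, 1.28-fold higher in the floating library (1.15 to 1.44). CAB39L was at 34.8 TPM in the adherent and 22.04 TPM in the floating library, 1.54-fold lower (1.42 to 1.67).

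The paralogs were next compared with each other inside each library, which does not depend on how the libraries are scaled. Of 10 such ratios, chosen after the values were seen, each has an exact conditional interval for its change that again covers counting error only. STRADA made up 53.9% of the summed STRADA and STRADB level in adherent cells and 43.0% in floating cells. Their sum hardly moved, at 44.8 and 45.2 TPM, and the read ratio of STRADA to STRADB was 1.57-fold lower in floating cells (1.33 to 1.84). For CAB39 the share of the summed CAB39 and CAB39L level went from 48.7% in adherent to 62.5% in floating cells, and the read ratio was 1.76-fold higher (1.58 to 1.96). The sum of this pair was 67.7 TPM in the adherent and 58.8 TPM in the floating library. In each pair the paralog with the higher level was a different gene in the 2 libraries, although the counting intervals of the 2 paralogs overlapped in adherent cells.

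**Figure D2:**
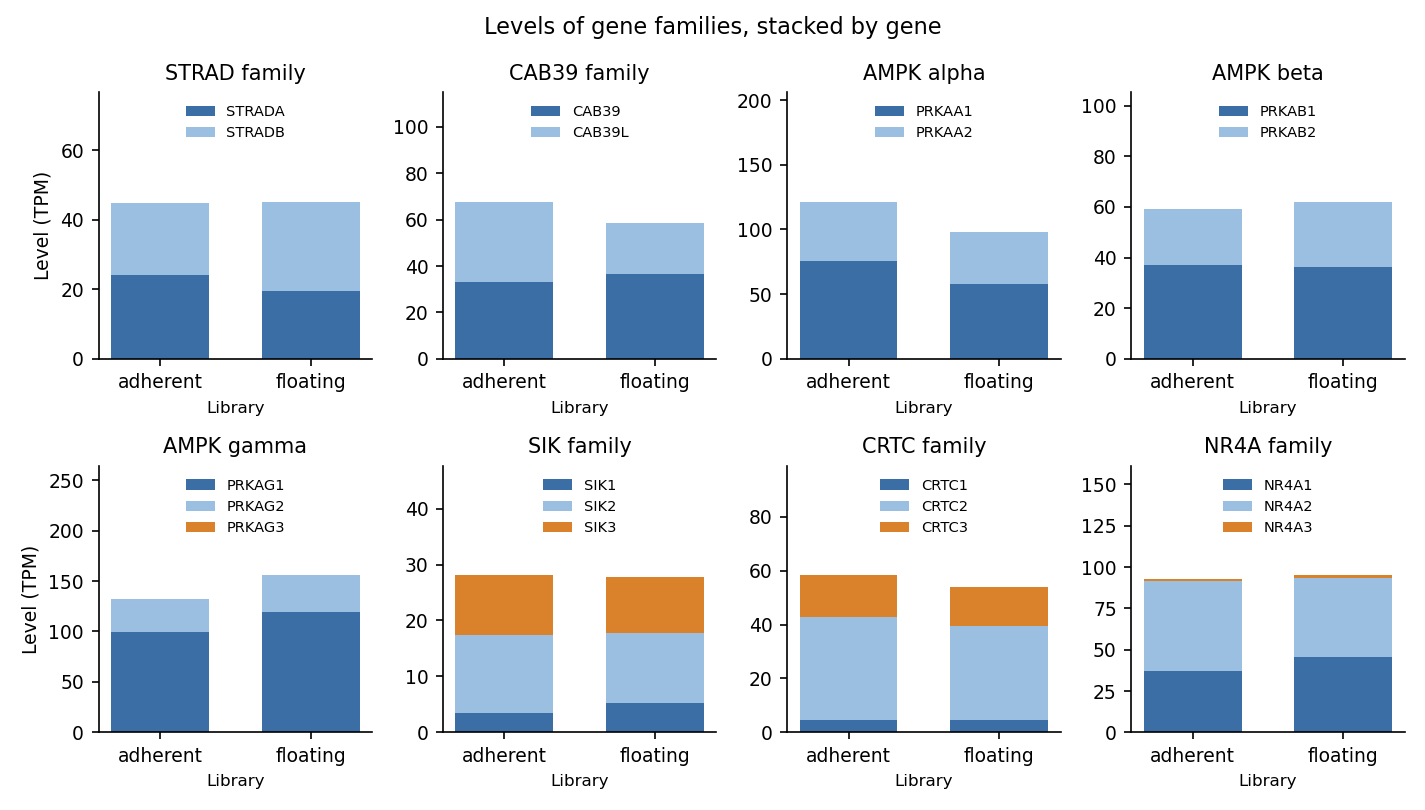
Levels in TPM (y axis, from 0, a separate scale per panel) of 8 gene families in the adherent and floating libraries, stacked by gene, with 1 library per bar and no error bar. The STRADA and STRADB stacks are nearly equal in height (44.8 and 45.2 TPM) with different shares, while the PRKAA1 and PRKAA2 stack is lower in floating cells (121 and 98.2 TPM).

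PRKAA1 encodes a catalytic alpha subunit of AMPK and was the most abundant of the 10 genes in each library. It was at 75.4 TPM in the adherent and 57.7 TPM in the floating library, with 4629 and 3783 reads. The floating level was 1.27-fold lower (1.21 to 1.32), a log2 ratio of -0.34 that lay above those of 10.2% of the genes compared. The other catalytic subunit gene, PRKAA2, had more reads than PRKAA1 (5288 and 4970) but a lower level per length, at 45.9 and 40.4 TPM. It was 1.10-fold lower in floating cells (1.06 to 1.14). The regulatory subunits did not follow the catalytic ones. PRKAG1, which encodes a nucleotide-binding gamma subunit, was at 99.0 TPM in the adherent and 119 TPM in the floating library, 1.24-fold higher (1.17 to 1.32). PRKAB2, which encodes a beta subunit, was 1.21-fold higher (1.13 to 1.29), while the interval of PRKAB1 held no difference (log2 ratio 0.01). PRKAG2, chosen after its values were seen, was 1.14-fold higher (1.04 to 1.25). PRKAG3, the gamma subunit of skeletal muscle, had 0 reads in both libraries. Summed over the alpha genes and over the expressed gamma genes, the read ratio of alpha to gamma was 1.42-fold lower in floating cells (1.34 to 1.501), and that of alpha to beta 1.32-fold lower (1.24 to 1.40). In adherent cells PRKAA2 had 115 reads per TPM and PRKAG1 19.1, so a trend with length does not cancel in such ratios. No within-library ratio was recomputed with the length trend removed.

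**Figure D3:**
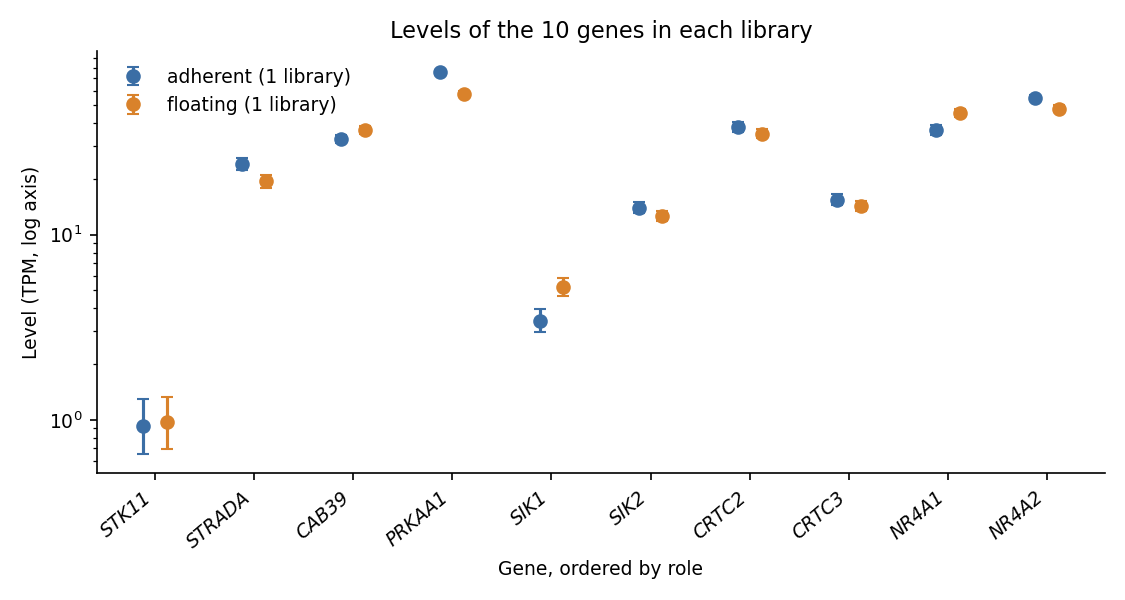
Level in TPM (y axis, log scale) of the 10 genes in the adherent (blue) and floating (orange) library, with bars for the exact 95% Poisson interval of the reads. STK11 is lowest at 0.93 and 0.97 TPM, and PRKAA1 highest at 75.4 and 57.7 TPM.

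SIK1 showed the largest difference of the 10. It had 194 reads in the adherent and 315 reads in the floating library, or 3.43 and 5.22 TPM, the second lowest level of the 10 in each library. The floating level was 1.57-fold higher (1.31 to 1.89), and its log2 ratio of 0.65 exceeded that of 97.1% of the genes compared. SIK2 was more abundant, at 14.0 TPM in the adherent and 12.6 TPM in the floating library with 965 and 926 reads. Its log2 ratio of -0.11 had an interval that held 0 (-0.24 to 0.02). Within each library the read ratio of SIK1 to SIK2 was 1.69-fold higher in floating cells (1.38 to 2.08). SIK3, the remaining kinase of this family, was at 10.6 and 9.87 TPM, with a log2 ratio of -0.06 (-0.21 to 0.08), and the SIK2 to SIK3 read ratio changed by a factor of 0.97 (0.84 to 1.11). SIK1 thus made up 12.2% of the summed level of the 3 kinases in adherent cells and 18.9% in floating cells, while the sum stood at 28.1 and 27.7 TPM. PPP2R1B, whose exons overlap those of SIK2 on the opposite strand in GENCODE 29, had 928 and 1110 reads, so the strand caveat given for STK11 applies to SIK2 too. Exons of NR4A1 and CRTC3 are also overlapped on the opposite strand, and those of STRADA on the same strand. The overlapping genes had no matched symbol in these data, so reads of those overlaps cannot be told apart either.

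The coactivators that SIK kinases phosphorylate were alike in the 2 libraries. CRTC2, the CRTC form best known from glucose metabolism in the liver, was at 38.2 TPM in the adherent and 35.1 TPM in the floating library, with 1187 and 1164 reads. CRTC3 was at 15.5 and 14.4 TPM, with 983 and 972 reads. The log2 ratios were -0.08 (-0.20 to 0.04) and -0.07 (-0.19 to 0.06), and the lower end of each interval stands for a level 1.14-fold lower in the floating library. CRTC2 was 2.47 times as abundant per length as CRTC3 in adherent cells and 2.45 times in floating cells. CRTC1, the third coactivator, was the least abundant at 4.61 and 4.45 TPM, with a log2 ratio of -0.01 (-0.21 to 0.20). The composition of the CRTC family was therefore nearly the same in both libraries, with CRTC2 at 65.5% and 65.1% of the summed level.

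The NR4A genes encode orphan nuclear receptors that are induced within minutes by cAMP and by growth factor signals, and the members differed in direction. NR4A1 had 1087 reads in the adherent and 1428 reads in the floating library, or 36.9 and 45.3 TPM. It was 1.27-fold higher in floating cells (1.17 to 1.38), a log2 ratio of 0.34 that exceeded that of 90.5% of the genes compared. NR4A2 had 2295 and 2135 reads, or 54.9 and 47.8 TPM. It was lower in floating cells by 1.11-fold (1.05 to 1.18). In adherent cells the NR4A2 level stood above that of NR4A1 with separate counting intervals, whereas in floating cells their counting intervals overlapped. The read ratio of NR4A1 to NR4A2 was 1.41-fold higher in floating cells (1.28 to 1.56). NR4A3, at 1.29 and 1.84 TPM with 88 and 134 reads, was 1.47-fold higher (1.12 to 1.95), and the change in the ratio of NR4A1 to NR4A3 had an interval that held no change (0.64 to 1.15). The summed level of the 3 receptors was 93.04 TPM in the adherent and 94.99 TPM in the floating library, so their total was close while the shares moved.

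Ordered by level per length in adherent cells, the genes ran from PRKAA1 through NR4A2, CRTC2, NR4A1, CAB39, STRADA, CRTC3, SIK2 and SIK1 to STK11. Counting intervals of neighbours overlapped for CRTC2 with NR4A1 and for CRTC3 with SIK2. In floating cells NR4A1 and CAB39 stood above CRTC2, and the rest of the order was the same. There the neighbours with overlapping intervals were NR4A2 with NR4A1 and CAB39 with CRTC2. In both libraries, SIK1 and STK11 each stood apart at the low end. With 2 libraries, no pattern across samples could be compared between genes, so no genes of like pattern are named.

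The pathway around the 10 genes was described with 10 lists holding 92 matched genes, of which 83 were compared. Of these, 3 were at least 2-fold higher and 0 at least 2-fold lower in floating cells, where 1.28% of all genes compared were higher and 0.754% lower. Intervals lay above 0 for 22 of the 83 and below 0 for 27, against 25.5% and 25.6% of all genes, and the median log2 ratio was -0.03. Among the 11 AMPK-related kinases, which STK11 also phosphorylates apart from MELK, none was 2-fold apart and the median was 0.05. The most-read of them were MARK3 (log2 ratio 0.20, 60.7 and 67.4 TPM), MARK2 (-0.01), MELK (0.05) and MARK4 (0.07). NUAK2, chosen after its values were seen, was at 24.9 and 35.7 TPM and 1.48-fold higher (1.37 to 1.60). Its paralog NUAK1, chosen in the same way, was at 6.09 and 4.70 TPM and 1.25-fold lower (1.10 to 1.43).

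Regulators of AMPK were led by SESN2, a stress-induced sestrin that restrains mTORC1. SESN2 was at 15.9 TPM in the adherent and 33.5 TPM in the floating library and 2.17-fold higher (1.98 to 2.38). It was the only one of the 11 past 2-fold, where 1.28% of all genes compared were at least 2-fold higher. The sestrins did not move together. SESN1 and SESN3 were chosen after their values were seen. SESN1 had a log2 ratio of 0.22 (0.07 to 0.37), and SESN3, with 55 and 33 reads, one of -0.78 (-1.45 to -0.14). CAMKK2, a calcium-dependent kinase that can activate AMPK without STK11, was at 57.7 and 49.96 TPM and 1.12-fold lower (1.06 to 1.17). MAP3K7 had a log2 ratio of 0.21, the phosphatase subunit gene PPP2CA one of 0.11 and FNIP1 one of -0.03.

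Among the 13 AMPK substrates and genes of the mTORC1 arm, 6 had intervals below 0, 2 above 0, and none was 2-fold apart (median -0.04), where 25.6% of all genes lay below 0 and 25.5% above. With the length trend removed, 4 lay below 0 and 3 above. The lower ones included the acetyl-CoA carboxylases, which AMPK inhibits by phosphorylation. ACACA, the carboxylase of fatty acid synthesis, was at 76.6 TPM in the adherent and 64.99 TPM in the floating library and 1.14-fold lower (1.11 to 1.18). Its mitochondrial paralog ACACB, chosen after its values were seen, was 1.39-fold lower (1.28 to 1.51). MTOR was 1.14-fold higher (1.10 to 1.19), and the log2 ratio of TBC1D1 was -0.01.

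**Figure D4:**
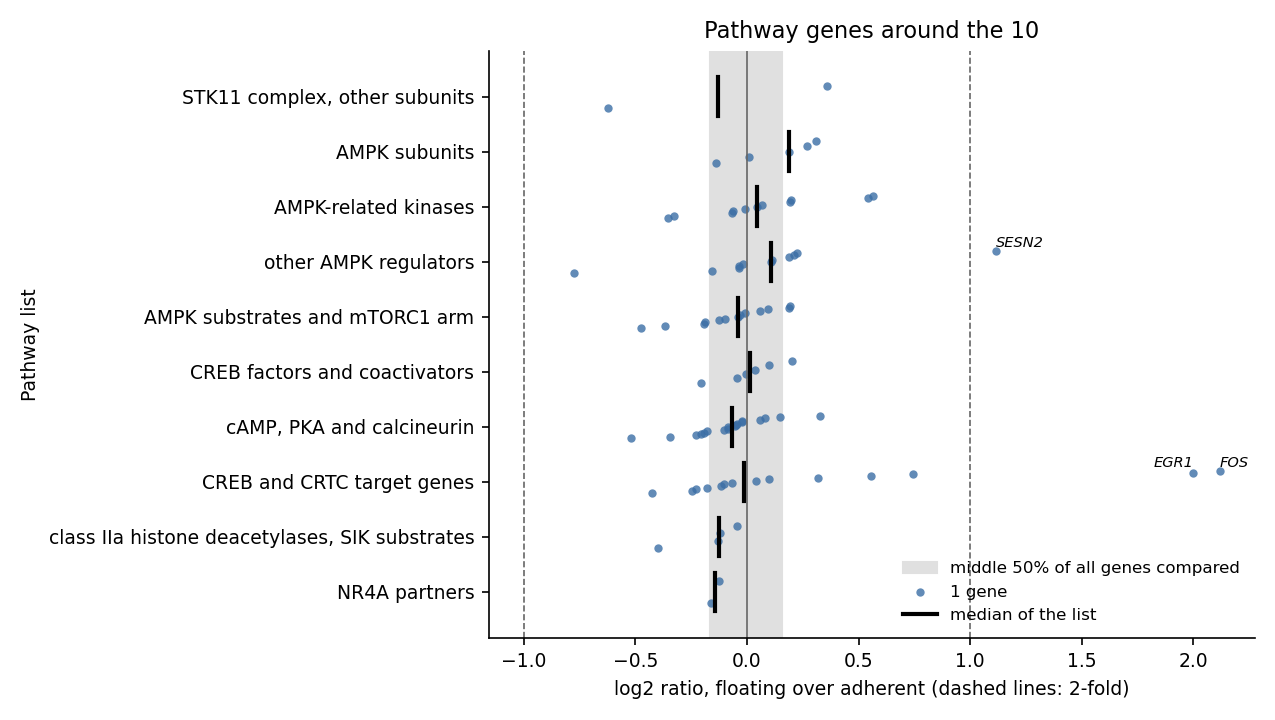
Log2 ratio of floating over adherent (x axis) for each compared gene of the 10 pathway lists (rows), with a black bar for the median of the list. The shaded band is the middle 50% of all genes compared, and the dashed lines mark 2-fold, past which only SESN2, EGR1 and FOS lie.

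On the CREB side, none of 6 CREB factors and coactivators was 2-fold apart and the median was 0.01. Their intervals lay above 0 for 2 and below 0 for 1, against 25.5% and 25.6% of all genes. CREB1, the factor that CRTC proteins join and a gene chosen after its values were seen, was at 9.68 TPM and 10.8 TPM and 1.15-fold higher (1.06 to 1.24). CREM was at 108 and 113 TPM (log2 ratio 0.10), ATF1 at 43.6 and 43.4 TPM (0.04), CREBBP had a log2 ratio of -0.04 and EP300, a histone acetyltransferase, was 1.15-fold lower (1.11 to 1.20). The 18 genes of cAMP, protein kinase A and calcineurin had a median of -0.07, with 7 intervals below 0 and 1 above, where the shares of all genes were 25.6% and 25.5%. The cAMP-degrading phosphodiesterase PDE4D was abundant, at 288 TPM in the adherent and 239 TPM in the floating library, and 1.17-fold lower (1.15 to 1.19). PDE4B was 1.07-fold lower (1.04 to 1.11) and PDE4A, chosen after its values were seen, 1.43-fold lower (1.33 to 1.546). PRKAR1A, the regulatory subunit that holds protein kinase A inactive, was 1.13-fold lower (1.10 to 1.16), and PPP3R1 of calcineurin had a log2 ratio of -0.05.

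Of the 14 compared genes in the list of CREB and CRTC targets, 6 had intervals above 0 and 5 below, against 25.5% and 25.6% of all genes, and the median was -0.01. Of all genes compared, 1.28% were at least 2-fold higher. Past 2-fold in this list were FOS, at 4.48 and 18.95 TPM (4.34-fold higher, 3.54 to 5.41), and EGR1, at 39.7 and 154 TPM (3.996-fold higher, 3.77 to 4.24). Both are immediate-early genes that serum response factor also controls, as are the NR4A genes in part. DUSP1, a phosphatase gene of the same early class chosen after its values were seen, was at 17.6 and 28.6 TPM and 1.68-fold higher (1.48 to 1.90). The epidermal growth factor receptor ligand gene AREG was the most abundant of the list, at 1537 and 1861 TPM, and 1.25-fold higher (1.22 to 1.27). Other targets went the opposite way. CITED2, a transcriptional co-regulator, was at 305 and 220 TPM and 1.34-fold lower (1.295 to 1.39), and the clock gene PER1 1.13-fold lower (1.03 to 1.25), while the log2 ratio of BDNF was 0.04. SIK1, NR4A1 and NR4A3 were thus on the same side as FOS, EGR1, DUSP1, AREG and CREM. NR4A2 was on the side of CITED2, PER1, PDE4B, PDE4D and IRS2. The last, chosen after its values were seen, had a log2 ratio of -0.25 (-0.40 to -0.09). The interval held 0 for the other 3 compared genes of the list, BDNF among them.

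Class IIa histone deacetylases, which SIK kinases also phosphorylate, had 3 of 4 intervals below 0 and none above, where 25.6% of all genes lay below. The count was 2 with DESeq2 size factors or library totals and 1 with the length trend removed. HDAC9 was the most abundant, at 141 TPM in the adherent and 104 TPM in the floating library, and 1.32-fold lower (1.27 to 1.36). HDAC5 (log2 ratio -0.13) and HDAC7 (-0.12) had intervals that ended just below 0, and HDAC4 (-0.04) had one that held 0. Of the retinoid X receptors, which pair with NR4A1 and NR4A2, RXRB was 1.12-fold lower (1.03 to 1.22), RXRA had a log2 ratio of -0.12 (-0.26 to 0.01) and RXRG had 0 reads in both libraries.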

How the data were processed

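The authors deposited 2 tables with a column per library: estimated counts per gene symbol, not normalized, and TPM, which they scaled to the transcripts of each library. The submitters' processing notes name RSEM 1.3.3, STAR 2.5.3a, FastQC 0.11.1 and build hg19. No source used here gives the annotation or the use of strand. Estimated counts were rounded to whole numbers, and those of all 10 genes were whole already. Scaling was by the TMM method of edgeR 4.0.16 (R 4.3.3), and log2 ratios used a prior count of 0.5. The 13131 genes that reached 1 CPM in either library were kept. Intervals for ratios are exact Clopper-Pearson intervals (95%) conditional on the summed reads. Reads without molecular identifiers are not independent molecules. Groups of 1 library allow no test, so there are no SDs or p-values. For 0 reads the upper limit was set at 3 reads.

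Within-library ratios of paralogs used scipy 1.17.1 under Python 3.11.15. The ratios between libraries and their intervals were checked on simulated Poisson counts, which hold no variation between cultures. The within-library ratios were not part of that check. The genes and lists were chosen with earlier results of these data known. Named are the 10 genes, listed genes past 2-fold, the 4 most-read others of each list and direct paralogs, and 1 gene taken by this rule is left out. Further genes are marked where named, apart from listed genes below 1 CPM and genes named for an overlap. The alternatives used size factors of DESeq2 1.42.0, totals, the upper quartile, prior count 5, no filter, a minimum of 5 CPM, deposited TPM (log2 of TPM + 0.1), a trend over reads per TPM removed, a 1.5-fold threshold and no interval. Gene overlaps came from GENCODE 29 and promoters from RefSeq, both on GRCh38, so no gene coordinates are given on hg19.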

Additional observations from a re-analysis of the deposited data

How the results depend on the processing

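No paired analysis was possible because each group is 1 library. The ratios of the 10 genes stayed inside their own counting intervals under every scaling, prior count, filter, TPM and length alternative that kept them (STK11 fell out at a minimum of 5 CPM). SIK1 ranged from 0.59 to 0.69 on the log2 scale, NR4A1 from 0.30 to 0.35, PRKAA1 from -0.39 to -0.30, STRADA from -0.31 to -0.28, CAB39 from 0.16 to 0.22 and NR4A2 from -0.20 to -0.14. The counts of 3 intervals above and 3 below 0 stood under each alternative that has intervals. With a 1.5-fold threshold, 1 of the 10 genes (SIK1) and 6 of the 83 pathway genes were called, in place of 0 and 3. Of all genes compared, 6.15% were called at 1.5-fold and 2.03% at 2-fold. The 6 pathway genes were SESN2, FOS, EGR1 and DUSP1, higher, and CAB39L and SESN3, lower. Of 63 named genes, 5 moved outside their counting interval on deposited TPM and 5 with the length trend removed, and none whose interval excluded 0 changed sign. One of the latter was PRKAA2, at -0.08. Of the AMPK substrates and mTORC1 genes, 5 lay below 0 with DESeq2 size factors or library totals, and of the cAMP genes 8 with upper-quartile scaling. With the length trend removed, 1 of the CREB factors and coactivators lay above 0. Of the CREB and CRTC targets, 5 lay above 0 with that trend removed or at a minimum of 5 CPM. Over all genes, a minimum of 5 CPM left 64 higher and 41 lower past 2-fold, and no filter gave 286 and 164, against 168 and 99. Depth limits STK11 most, at 36 and 40 reads.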

Other observations

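Several genes known as CRTC targets in STK11-deficient lung cancer were at or near 0 in these libraries. A link of their levels to that of STK11 was not tested. The long noncoding RNA LINC00473 had 0 reads in the adherent and 2 reads in the floating library, where 0 reads allow up to 0.114 CPM. INSL4, a relaxin-family peptide gene, had 0 reads in both, for which the limits are 0.114 CPM (adherent) and 0.1102 CPM (floating). NEDD9, a scaffold gene of cell migration, had 3 and 2 reads. The CREB targets of liver and endocrine cells were likewise at the floor, with PCK1 and SST at 0 reads in both libraries, PPARGC1A at 0 and 1 reads and CGA at 0 and 4 reads. Other genes of the same list were abundant in each library, with AREG at 1537 and 1861 TPM, CITED2 at 305 and 220 TPM, PDE4D at 288 and 239 TPM and PDE4B at 173 and 156 TPM.

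STK11 was low among its neighbours. Of the 4 protein-coding genes on each side of it on chromosome 19 in RefSeq, chosen after the STK11 level was seen, the levels in adherent cells ran from 2.97 TPM (HMHA1, now ARHGAP45) to 811 TPM (GPX4), with a median of 55.6 TPM. In floating cells they ran from 4.35 to 780 TPM with a median of 49.2 TPM. The genes next to STK11 were SBNO2, at 14.0 and 13.7 TPM, and C19orf26, at 7.76 and 7.05 TPM. STK11, at 0.93 and 0.97 TPM, was below all 8 in each library.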
